A study of Mus musculus with 6 samples.

Results

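The interleukin 1 family and the inflammasome were followed through 10 genes: the cytokine genes Il1a, Il1b and Il18, the inhibitor genes Il1rn and Il18bp, the receptor chain gene Il1rap, the sensor gene Nlrp3, the protease genes Casp1 and Casp4, and the pore gene Gsdmd. They were found by gene name among the 54532 genes of the count table, and all 10 were present and passed the filter on low counts. The cells were RAW264.7, an established mouse macrophage line, labelled wild type in both groups and collected by fluorescence-activated sorting. One group had grown alone without treatment (3 libraries, replicates A, B and C), and the other had been cocultured for 48 h with TTJ cells (3 libraries, replicates A, B and C). TTJ cells are null for Tsc2, which encodes a brake on mTORC1, and come from an angiomyolipoma of a mouse model of tuberous sclerosis complex. Messenger RNA was sequenced to ask how Tsc2-null cells alter macrophage polarization. RAW264.7 is a single line. Whether replicates A, B and C are separate cultures is not said, and the p-values therefore reflect library-to-library spread that could be technical. A library of TTJ cells alone was not analysed here.

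Interleukin 1 alpha and interleukin 1 beta signal through the same receptor, which needs the accessory chain encoded by Il1rap, and the antagonist encoded by Il1rn occupies that receptor without signalling. Interleukin 1 beta and interleukin 18 are made as inactive precursors that caspase 1 cuts after an inflammasome has assembled, whereas interleukin 18 binding protein captures mature interleukin 18. NLRP3 is the sensor of one inflammasome and recruits caspase 1 through the adaptor ASC, which Pycard encodes. RAW264.7 cells are known as a line that makes little or no ASC. Caspase 1 and caspase 4 (caspase 11 of mice) cut gasdermin D, which then forms membrane pores. Messenger RNA levels report neither the cutting nor the release of these proteins.

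Library totals ran from 14329487 to 17358280 counts. A group without any count could still hold up to 3, which is worth 0.0618 CPM alone and 0.0639 CPM in coculture, where CPM is counts scaled to library size (TMM). The 15 macrophage identity markers were all tested and summed to 12996 to 13098 CPM alone and 13676 to 13997 CPM in coculture. At an adjusted p under 0.05 in edgeR's quasi-likelihood test, 8 were higher and 5 lower. Among all genes tested 21.7% were higher and 15.2% lower at that threshold. Of 15 renal and simple epithelial markers 11 were tested, and all 11 were higher. The list summed to 0 to 0.115 CPM alone and 374 to 431 CPM in coculture. Of these 11, 0 would have passed the filter on low counts through the lone libraries, which fixed their direction. Epcam, Cldn7 and Lhx1 had 0 counts in coculture. Of 13 mesenchymal and smooth muscle markers 4 were tested and 3 were higher. Only 1 of the 4 would have passed the filter through the lone libraries, and it was not called. This list summed to 1.79 to 2.06 CPM alone and 59.5 to 64.0 CPM in coculture, and Col3a1, Pdgfra and Thy1 had 0 counts there. The 688 genes with 0 counts alone and at least 10 in coculture took 0.282%, 0.314% and 0.286% of the counts of the cocultured libraries. Genes with any count in lone cells are left out of this share, such as Krt7, with 1 count alone and 2694 in coculture. The share is therefore no estimate of all RNA from TTJ cells. The part of RNA from TTJ cells in the changes described here was not tested.

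In coculture Il1a, Il1b, Il18, Il1rn, Il1rap and Casp1 were higher, and Il18bp, Nlrp3, Casp4 and Gsdmd did not pass the threshold. The threshold was an adjusted p under 0.05 in edgeR's quasi-likelihood test over all 12972 genes tested. The changes ranged from 21.5-fold for Il1a and 12.9-fold for Il1b, both near the detection limit alone, through 1.92-fold for Il1rn, 1.71-fold for Il18 and 1.46-fold for Il1rap to 1.14-fold for Casp1. Among all genes tested 21.7% were called higher and 15.2% lower. Of the 10 members 6 were called higher and 0 lower, and 0 were lower at an unadjusted p under 0.05 or in the DESeq2 Wald test. Their median log2 change, with Il1a and Il1b included, was 0.48, and that of all genes tested was 0.0029. Only their cocultured libraries brought Il1a and Il1b past the filter, which fixed their direction. The count of 6 and the median of 0.48 are both raised by this. In a fit that required a mean of at least 1 CPM alone, 17.7% of 11460 genes were called higher and 14.3% lower. That fit held 8 members, of which 4 were called higher (Il1rn, Il18, Il1rap and Casp1) and 0 lower, also at an unadjusted p under 0.05.

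**Figure D1:**
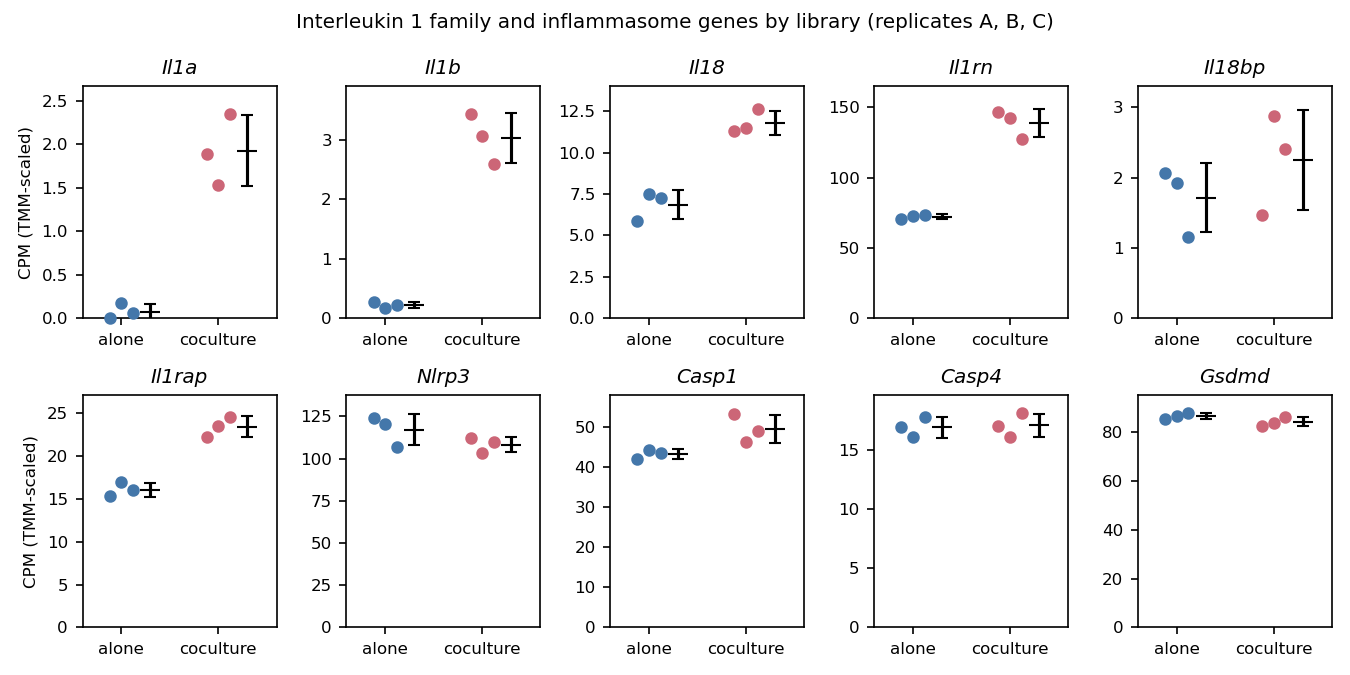
CPM of each of the 10 genes (vertical axes, linear, each from 0) in the 3 libraries of lone and the 3 of cocultured RAW264.7 cells; points are libraries, and bars show the mean and SD. The groups stand apart for Il1a, Il1b, Il18, Il1rn, Il1rap and Casp1 and overlap for Il18bp, Nlrp3, Casp4 and Gsdmd.

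Il1a, the gene of interleukin 1 alpha, which is active without being cut by caspase 1, was close to absent in lone cells. It lies on chromosome 2 from 129299610 to 129309972 on the minus strand (mm10, ENSMUSG00000027399). It had 0, 3 and 1 counts in lone replicates A, B and C and 27, 24 and 40 counts in cocultured replicates A, B and C. Every cocultured library was thus far above every lone library, although none exceeded 40 counts. The mean was 0.0792 ± 0.0919 CPM (SD, n = 3) alone and 1.92 ± 0.411 CPM (SD, n = 3) in coculture, a fitted log2 change of 4.43 (SE 0.571, 95% interval 3.25 to 5.61, edgeR adjusted p = 6.43e-07). The ratio of summed counts, corrected for depth, was 23.5, with an exact 95% interval, for counting error alone, of 8.88 to 88.2. The fitted log2 change was 5.62 without alone replicate B, which held 3 of the 4 lone counts. In a bulk library, fewer cells carrying a transcript and less of it per cell cannot be told apart.

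Il1b, the gene of interleukin 1 beta, the secreted form that needs caspase 1, is the neighbouring family member on the same chromosome and strand (129364570 to 129371139, ENSMUSG00000027398). Its counts were 4, 3 and 4 in lone replicates A, B and C and 49, 48 and 44 in the cocultured ones. The 3 cocultured libraries were close to each other and did not overlap the lone ones. The mean went from 0.228 ± 0.0476 to 3.03 ± 0.424 CPM, 12.9-fold higher with a 95% interval of 7.29 to 22.8 (log2 3.69, SE 0.399, adjusted p = 3.43e-08). On the log2(FPKM + 1) scale, where FPKM divides the count by gene length and library total, the changes of both cytokines were smaller, 0.92 for Il1a and 1.2 for Il1b, since a pseudocount of 1 exceeds their levels alone, and both were still called. Genes on the opposite strand overlap both loci. Over Il1a, Gm14023 was counted 2, 0 and 1 times in lone cells and 10, 3 and 3 times after coculture. Over Il1b, Il1bos was counted 0, 0 and 1 times in lone cells and 3, 2 and 0 times after coculture.

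Il18, the gene of interleukin 18, a caspase 1 substrate that many macrophages keep ready as precursor, was already present in lone cells (chromosome 9, 50554827 to 50581840, ENSMUSG00000039217). Its levels were 5.85, 7.49 and 7.26 CPM in lone replicates A, B and C and 11.3, 11.5 and 12.6 CPM in the cocultured ones. The lowest cocultured library stood well above the highest lone library. The mean rose from 6.87 ± 0.892 to 11.8 ± 0.732 CPM, 1.71-fold with a 95% interval of 1.40 to 2.09 (log2 0.78, SE 0.140, adjusted p = 7.35e-05). Bco2, a carotenoid-cleaving enzyme gene on the opposite strand, shares 355 bases with Il18 and received 51, 56 and 60 counts in lone replicates A, B and C and 94, 81 and 86 in the cocultured ones. Il18 itself received 85, 125 and 126 and then 161, 180 and 215 counts, and the part of shared reads was not tested.

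Il1rn, the gene of the interleukin 1 receptor antagonist, about doubled in coculture (chromosome 2, 24336853 to 24351494, ENSMUSG00000026981). Lone replicates A, B and C held 70.6, 73.0 and 73.4 CPM, and cocultured replicates A, B and C held 147, 142 and 128 CPM. The lone libraries were nearly level and the cocultured ones all lay above them. The rise from 72.3 ± 1.55 to 139 ± 10.0 CPM was 1.92-fold, with a 95% interval of 1.77 to 2.08 (log2 0.94, SE 0.0547, adjusted p = 2.82e-13). This was the smallest p among the members.

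Il18bp, the gene of the soluble protein that captures interleukin 18, was low, with 2.06, 1.92 and 1.15 CPM alone and 1.47, 2.87 and 2.41 CPM in coculture. The groups overlapped, since cocultured replicate A fell below lone replicates A and B. The log2 change was 0.41 (SE 0.313, adjusted p = 0.326), and the 95% interval of the fold, 0.852 to 2.08, reached from a small decrease to a doubling. Numa1, on the opposite strand, shares 80 bases with Il18bp and had 3909 to 5331 counts per library, against 20 to 45 for Il18bp.

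The antagonist and its agonists were also set against each other per length. Il1rn divided by the sum of Il1a and Il1b, in deposited FPKM, was 88.4, 71.1 and 88.4 in lone replicates A, B and C and 9.63, 10.8 and 9.06 in the cocultured ones. Antagonist transcripts therefore exceeded agonist transcripts in all 6 libraries, and the mean ratio was 82.6 ± 9.99 alone and 9.83 ± 0.887 in coculture. The agonist sum behind these ratios was 0.160 ± 0.0221 FPKM alone and 2.56 ± 0.186 FPKM in coculture. In lone replicates A, B and C it rests on 0, 3 and 1 counts of Il1a and 4, 3 and 4 of Il1b. The SD of the lone ratio does not include that counting error in full. Il18 divided by Il18bp was 8.32, 11.5 and 18.5 alone and 22.5, 11.7 and 15.4 in coculture, with overlap. These ratios are given without a test, because an exact permutation test of 3 against 3 libraries cannot go below p = 0.1.

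Il1rap, the accessory chain that the interleukin 1 receptor and the receptors of interleukins 33 and 36 share, rose modestly (chromosome 16, 26581704 to 26730117, ENSMUSG00000022514). It was at 15.3, 17 and 16.0 CPM in lone replicates A, B and C and at 22.2, 23.6 and 24.6 CPM in cocultured replicates A, B and C. The groups did not overlap. The rise from 16.1 ± 0.819 to 23.5 ± 1.22 CPM was 1.46-fold, with a 95% interval of 1.27 to 1.67 (log2 0.54, SE 0.0966, adjusted p = 6.38e-05). The ligand-binding chain of that receptor, encoded by Il1r1, was at 0, 1 and 0 counts in lone cells and at 0, 4 and 1 after coculture, and was not tested, and the decoy receptor gene Il1r2 had 2 counts, both in cocultured replicate A.

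Nlrp3, the sensor gene (chromosome 11, 59541568 to 59566956, ENSMUSG00000032691), was highly expressed in both groups. Its levels were 124, 121 and 107 CPM in lone replicates A, B and C and 112, 103 and 110 CPM in cocultured replicates A, B and C. The groups overlapped, with lone replicate C inside the cocultured range. The log2 change was -0.11, with a 95% interval of -0.23 to 0.0017 (SE 0.0558, adjusted p = 0.118). Without alone replicate C it was -0.18 and Nlrp3 was called lower (adjusted p = 0.0152), within a range of 0.0152 to 0.391 over the alternatives.

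Casp1, the gene of the protease that activates interleukin 1 beta and interleukin 18 (chromosome 9, 5298517 to 5307265, ENSMUSG00000025888), was at 41.9, 44.2 and 43.3 CPM alone and 53.0, 46.1 and 48.9 CPM in coculture. The groups did not overlap, but the gap between the highest lone and the lowest cocultured library was small. The mean rose from 43.2 ± 1.19 to 49.3 ± 3.49 CPM, 1.14-fold with a 95% interval of 1.03 to 1.26 (log2 0.19, SE 0.0685, adjusted p = 0.0306). Significance went without alone replicate A (adjusted p = 0.0761), alone replicate C (0.0580), coculture replicate A (0.185) or coculture replicate C (0.0545) and with no filter on low counts (0.0502), within a range of 0.0193 to 0.185 over the alternatives.

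Casp4, the neighbour of Casp1 and the gene of the protease that senses bacterial lipopolysaccharide in the cytosol, did not pass the threshold (chromosome 9, 5308828 to 5336783, ENSMUSG00000033538). It stood at 16.9, 16.1 and 17.8 CPM alone and 17, 16.1 and 18.1 CPM in coculture, so that the group ranges nearly coincided. The log2 change was 0.01 (95% interval -0.20 to 0.23, adjusted p = 0.935), and the 95% interval of the fold was 0.872 to 1.17. Its sign turned without alone replicate B or without coculture replicate C, to -0.027 and -0.026.

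Gsdmd, the gene of the pore-forming substrate of both caspases (chromosome 15, 75862327 to 75867408, ENSMUSG00000022575), was at 85.1, 86.5 and 87.8 CPM alone and 82.6, 83.9 and 86.1 CPM in coculture. The groups overlapped at their edges. The log2 change was -0.04 (95% interval -0.14 to 0.07, adjusted p = 0.605), and the 95% interval of the fold was 0.905 to 1.05.

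Between genes, levels were compared per length, as deposited FPKM. In lone cells the order was Gsdmd (36.3), Nlrp3 (28.8), Casp1 (28.8), Il1rn (13.0), Il18 (6.64), Casp4 (4.55), Il1rap (1.41), Il18bp (0.564), Il1b (0.120) and Il1a (0.040). Only Nlrp3 and Casp1 overlapped among neighbours in that order. In coculture the order was Gsdmd (35.4), Casp1 (32.9), Nlrp3 (26.6), Il1rn (25.1), Il18 (11.4), Casp4 (4.6), Il1rap (2.06), Il1b (1.58), Il1a (0.973) and Il18bp (0.743). There Gsdmd overlapped Casp1, Nlrp3 overlapped Il1rn, and Il1a overlapped Il18bp. The sensor, the protease and the pore gene thus headed both orders, and Il1a and Il1b were among the lowest 3 in both, below their antagonist. Casp1 divided by Casp4 was 6.33 ± 0.428 alone and 7.16 ± 0.521 in coculture, with overlap.

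**Figure D2:**
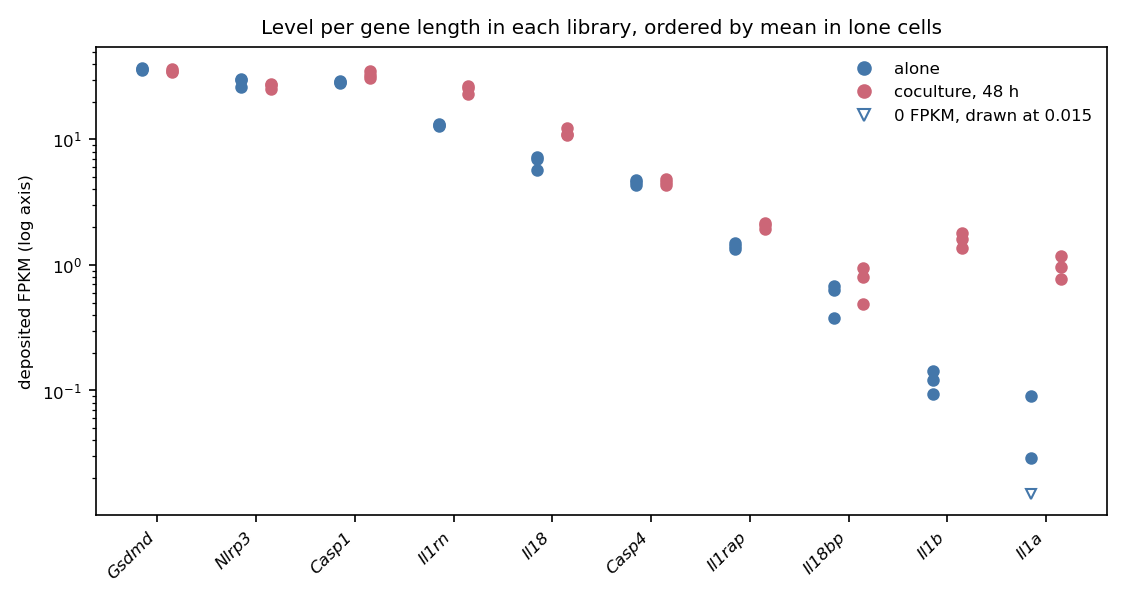
Deposited FPKM of the 10 genes (log axis) in lone and cocultured cells; points are libraries, and the open triangle is the library listed at 0. Gsdmd, Nlrp3 and Casp1 lie highest in lone cells, and Il1a and Il1b lie lowest, at means of 0.040 and 0.120 FPKM.

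Promoter sequence was examined in RefSeq windows of GRCm38.p6, the assembly of mm10, from 250 bases before to 50 bases after a start site. Of the 10 members 9 had an entry, with 13 windows in all. The searched letters, on both strands, were the NF-kB form (GGGA, 4 free bases and CC), the interferon regulatory factor form (GAAA, 2 free bases and GAAA), the STAT form (TTC and GAA with 3 free bases between), AP-1 (TGANTCA), C/EBP (TT, 2 free bases, G, 1 free base and AA) and PU.1 (GAGGAA). Of all 32851 promoter windows 20.7% held the NF-kB form, 3.40% the interferon regulatory factor form, 8.30% the STAT form, 7.80% AP-1, 40.7% C/EBP and 28.3% PU.1. The 250 bases before the start are printed for the interleukin 1 cytokines and the antagonist, which rose, and for Nlrp3 and Casp4, which were not called, 5′ to 3′ on the gene's strand, with matches in capitals. Where a gene had several windows, the most upstream one is shown.
Il1a, chr2:129309973-129310222, minus strand: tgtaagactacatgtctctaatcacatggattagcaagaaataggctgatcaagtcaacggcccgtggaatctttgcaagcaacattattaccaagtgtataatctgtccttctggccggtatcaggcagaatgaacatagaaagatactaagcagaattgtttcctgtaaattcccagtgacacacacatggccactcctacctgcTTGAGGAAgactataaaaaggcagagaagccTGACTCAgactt
Il1b, chr2:129371140-129371389, minus strand: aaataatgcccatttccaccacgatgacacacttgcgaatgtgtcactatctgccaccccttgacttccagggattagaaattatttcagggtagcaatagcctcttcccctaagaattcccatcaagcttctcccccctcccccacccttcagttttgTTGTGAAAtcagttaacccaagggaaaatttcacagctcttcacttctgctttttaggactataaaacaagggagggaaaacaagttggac
Il1rn, chr2:24336610-24336859, plus strand: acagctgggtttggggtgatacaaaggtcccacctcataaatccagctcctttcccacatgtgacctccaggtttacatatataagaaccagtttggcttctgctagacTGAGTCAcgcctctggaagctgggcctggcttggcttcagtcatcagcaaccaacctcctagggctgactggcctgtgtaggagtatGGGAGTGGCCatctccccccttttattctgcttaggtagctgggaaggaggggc
Nlrp3, chr11:59541319-59541568, plus strand: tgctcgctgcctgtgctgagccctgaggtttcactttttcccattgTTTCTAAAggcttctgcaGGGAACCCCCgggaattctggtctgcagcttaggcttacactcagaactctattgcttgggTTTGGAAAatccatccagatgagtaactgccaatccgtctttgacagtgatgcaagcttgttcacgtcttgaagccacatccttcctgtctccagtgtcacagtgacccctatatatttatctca
Casp4, chr9:5308599-5308848, plus strand: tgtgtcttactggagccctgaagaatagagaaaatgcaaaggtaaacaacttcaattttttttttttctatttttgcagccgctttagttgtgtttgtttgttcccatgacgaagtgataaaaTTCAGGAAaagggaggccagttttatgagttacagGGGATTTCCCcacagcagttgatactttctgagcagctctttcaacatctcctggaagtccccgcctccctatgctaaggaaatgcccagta

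In the Il1a window an AP-1 match began 12 bases before the start, and a C/EBP match at 43 bases overlapped a PU.1 match at 41 bases. The Il1b window held 1 match, of C/EBP at 91 bases. In Il1rn an NF-kB match began 54 bases before the start and an AP-1 match 141 bases before it. Nlrp3 held an NF-kB match at 186 bases and C/EBP matches at 204 and 125 bases, and Casp4 held an NF-kB match at 92 bases and a C/EBP match at 127 bases. Among the other members, not printed here, the Il1rap window held an NF-kB match at 119 bases. It also held an interferon regulatory factor match beginning 20 bases after the start. The Il18bp window held a C/EBP match at 49 bases, the Casp1 window a PU.1 match at 108 bases and the Il18 window 0 matches. In these windows NF-kB letters thus stood before Il1rn and Il1rap, which rose, and before Nlrp3 and Casp4, which were not called. The later Il1rn windows, with start sites at 24345291 and 24345371, held C/EBP matches only. The other Nlrp3 window, with its start site at 59542686, held C/EBP and PU.1 matches and no NF-kB match. These matches describe letters in the windows and are no measure of binding.

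Around the members, 62 further genes of the pathway were followed in 6 lists, of which 43 were tested, 11 higher, 5 lower and 27 not called, beside 21.7% higher and 15.2% lower among all genes. Their median log2 change was 0.03. Of the 43, 42 would have passed the filter through the lone libraries. The other cytokines of the family were too low to test, with 0 of 6 tested. Among them Il33, an alarmin of barrier cells, had 0 counts alone and 1 in coculture.

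Among 7 receptors and decoys 4 were tested, 2 higher and 1 lower. Il18r1, the binding chain of the interleukin 18 receptor, had 0 counts in all lone libraries and 37, 27 and 30 in the cocultured ones, or 2.03 ± 0.490 CPM, at least 32.4-fold higher against 3 counts over the lone group (adjusted p = 6.18e-08). Its cocultured libraries alone brought it past the filter. Its partner chain Il18rap, named here after its values were seen, was at 16.0 to 19.1 CPM alone and 19.9 to 20.7 CPM in coculture (log2 0.21, adjusted p = 0.107). Il1rl1, the receptor of interleukin 33, fell from 39.5 ± 1.83 to 33.4 ± 1.0 CPM (1.18-fold lower, adjusted p = 0.0102). Sigirr, a negative regulator of the receptor family, rose from 1.25 ± 0.463 to 2.34 ± 0.680 CPM (log2 0.91, adjusted p = 0.0333). It was no longer called without alone replicate B (adjusted p = 0.178) or coculture replicate B (0.217), in the DESeq2 Wald test (0.0606), with the FPKM pseudocounts of 1 (0.0602) and 0.1 (0.0652) and with the replicate letter as a block (0.0587).

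Among 14 inflammasome sensors and adaptors 8 were tested, 2 higher and 0 lower, and 0 were lower at an unadjusted p under 0.05 or in the DESeq2 Wald test. Pycard, the gene of the adaptor ASC, was not tested, at 3, 6 and 15 counts in lone replicates A, B and C and 2, 4 and 0 in the cocultured ones. The groups overlapped, and the sums were 24 and 6 counts. Per length it stood at a mean of 0.125 FPKM alone and 0.0346 FPKM in coculture, far below Nlrp3 and Casp1. Nlrc4, the sensor adaptor that receives bacterial ligands from NAIP proteins, rose from 5.67 ± 0.519 to 8.43 ± 0.415 CPM (1.49-fold, adjusted p = 0.00397). Naip5, a NAIP receptor for flagellin, rose from 11.5 ± 0.968 to 14.3 ± 0.242 CPM (1.25-fold, adjusted p = 0.0350), but the call was lost without alone replicate A (adjusted p = 0.0945), alone replicate C (0.0914), or coculture replicate A (0.0824), B (0.0826) or C (0.0550), in the DESeq2 Wald test (0.0601) and with no filter (0.0599), and Naip paralogs share sequence. Nek7, a kinase that binds NLRP3, gave a log2 change of -0.04 (adjusted p = 0.555), and Aim2, a sensor of cytosolic DNA, -0.06 (adjusted p = 0.445).

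All 10 genes of ion flux and priming upstream of NLRP3 were tested, with 4 higher and 0 lower, and 1 was lower at an unadjusted p under 0.05 and 0 in the DESeq2 Wald test. Guanylate-binding protein genes, which are interferon-induced and help caspase 4 reach bacterial lipopolysaccharide, made up 3 of the 4 that were higher, and a further tested one, Gbp5, did not pass the threshold (log2 0.52, adjusted p = 0.297), with overlap of the groups. Gbp3 was at 6.81, 4.92 and 6.40 CPM alone and 24.2, 20.3 and 19.7 CPM in coculture, 3.54-fold higher (adjusted p = 3.02e-11), and Gbp7 rose from 14.1 ± 0.708 to 42.2 ± 2.50 CPM, 2.99-fold (adjusted p = 8.28e-14). Gbp2 rose from 1.71 ± 0.433 to 3.52 ± 0.422 CPM (2.07-fold, adjusted p = 0.00252), and guanylate-binding protein genes share sequence, so their reads are uncertain. Txnip, a thioredoxin-binding protein gene reported to link oxidative stress to NLRP3, rose from 305 ± 44.5 to 411 ± 65.7 CPM (1.35-fold, adjusted p = 0.00015). Txnip was called in all 17 alternatives, but only just in the DESeq2 Wald test (adjusted p = 0.0492). P2rx7, the ATP-gated channel whose opening lets potassium leave the cell, averaged 39.5 ± 1.10 CPM in lone and 34.8 ± 2.53 CPM in cocultured cells (log2 -0.18, adjusted p = 0.0545), and it was called lower with upper quartile scaling (0.0429) and without coculture replicate B (0.0286).

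Of 10 caspase, gasdermin and pyroptosis genes 6 were tested, 2 higher and 1 lower. Casp8, the initiator caspase that can also cut gasdermin D, rose from 74.2 ± 1.37 to 86.2 ± 3.92 CPM (1.16-fold, adjusted p = 0.00251). Ninj1, which ruptures the plasma membrane late in lytic death, fell from 115 ± 2.89 to 97.6 ± 4.09 CPM (1.18-fold lower, adjusted p = 0.000416).

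All 15 genes of signalling from the interleukin 1 and 18 receptors were tested, 1 higher and 3 lower. The kinase genes Irak1, from 116 ± 6.97 to 93.5 ± 3.04 CPM (1.25-fold lower, adjusted p = 2.62e-05), and Irak2, from 41.8 ± 1.41 to 32.9 ± 2.13 CPM (1.27-fold lower, adjusted p = 0.000486), fell without overlap of the groups. Peli1, a ubiquitin ligase that acts on these kinases, was lower at 35.7 ± 4.27 and 30.6 ± 1.49 CPM (adjusted p = 0.0384), with overlap, and the call was lost in 10 of 17 alternatives, among them without alone replicate B (adjusted p = 0.238), alone replicate C (0.0762), coculture replicate A (0.150) or coculture replicate C (0.0770). Chuk, the gene of the kinase IKK alpha, was higher by a log2 of 0.14 (adjusted p = 0.0338), and missed the threshold in 8 of 17 alternatives, among them without alone replicate A (0.0697), alone replicate B (0.101), coculture replicate B (0.121) or coculture replicate C (0.110). Myd88, the adaptor of these receptors, gave a log2 change of 0.06 (95% interval of the fold 0.964 to 1.12, adjusted p = 0.441).

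**Figure D3:**
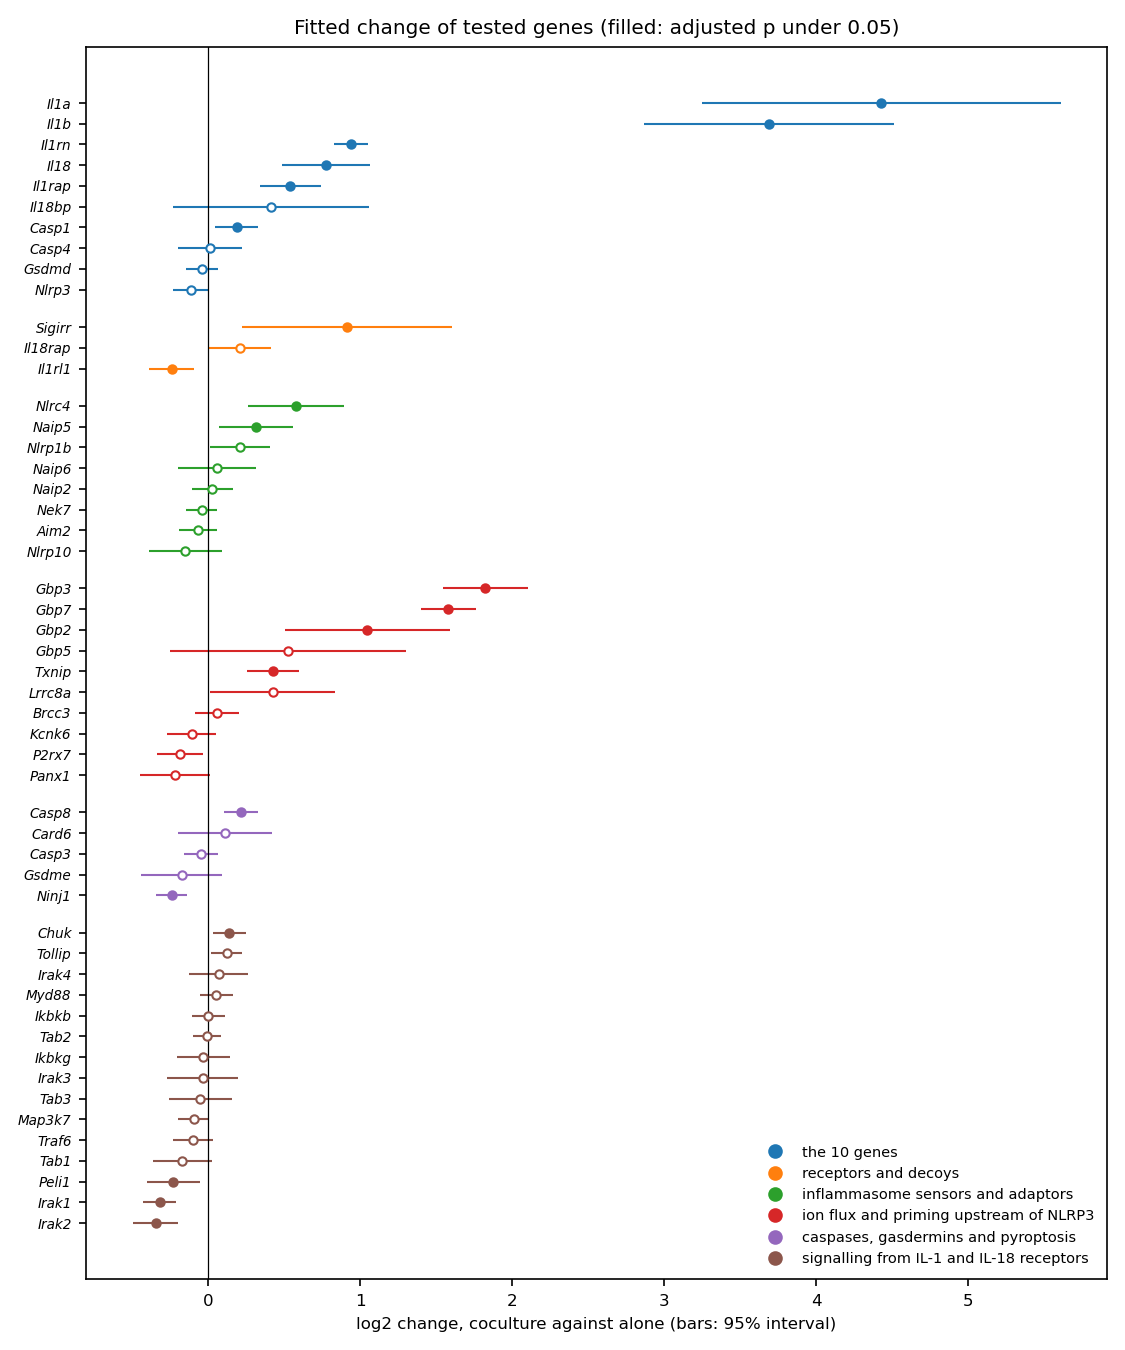
Log2 change of coculture against alone (horizontal axis) for the 10 genes and for tested genes from 5 pathway lists (Il18r1 is not drawn); lines are 95% intervals of edgeR's quasi-likelihood fit, and filled points had an adjusted p under 0.05. Il1a and Il1b lie farthest to the right, at 4.43 and 3.69, with the widest intervals, while most genes of receptor signalling lie near 0.

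**Figure D4:**
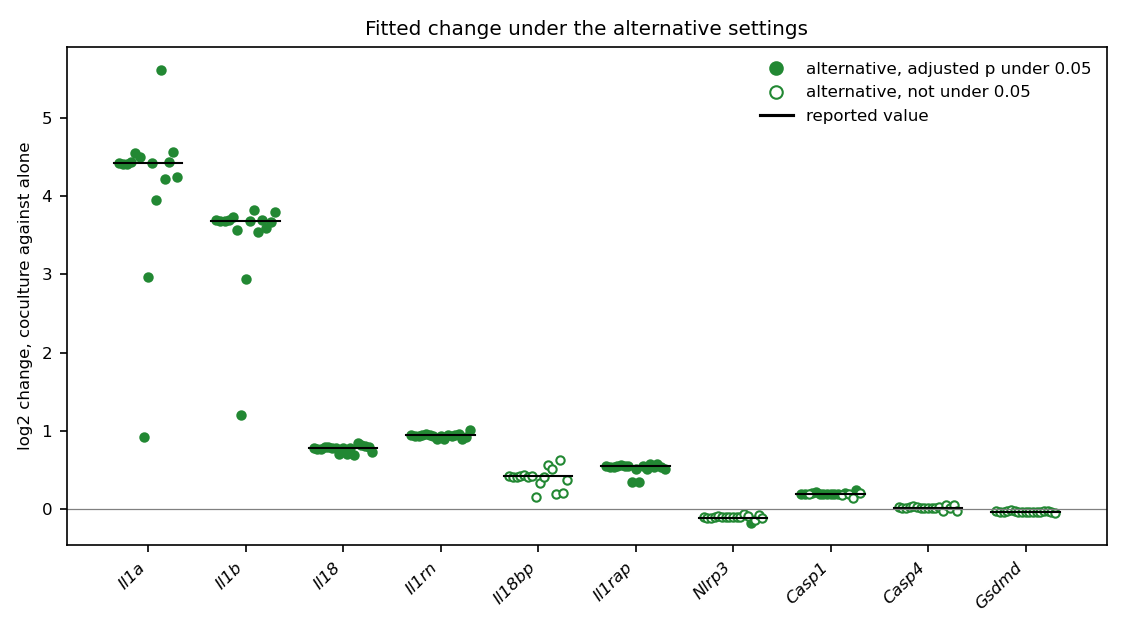
Log2 change of the 10 genes (vertical axis) under the 17 alternative settings, 1 point each (15 for Il1a and Il1b, 16 for Il18bp), with the reported value as a black line; filled points had an adjusted p under 0.05. Il1a and Il1b reach down to 0.92 and 1.2 where 1 is added to FPKM, whereas Il1rn stays between 0.89 and 1.0 and Casp4 lies on both sides of 0.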

How the data were processed

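Per the labels' protocols, poly-A RNA of sorted RAW264.7 cells was sequenced as paired reads. The authors deposited raw counts per gene with names and coordinates, and FPKM values of the same 6 libraries, per the file headers. The build mm10 and the tools edgeR 3.22.5, DESeq2 1.20.0, HISAT2 2.0.5 and featureCounts 1.5.0-p3 stand in the submitters' processing notes. Whether counting used strand is not given in those notes or labels, so opposite-strand genes that overlap could not be separated. Deposited FPKM values were checked against count, gene length and library total, except where a library held few counts of the gene. The ratio was 0.9955 to 1.004. The lone values of Il1a and Il1b were not among those checked.

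Counts were tested with edgeR 4.0.16 (R 4.3.3; glmQLFit and glmQLFTest, quasi-likelihood), with TMM scaling, filterByExpr by group and a group term, and with Benjamini-Hochberg adjustment over all 12972 genes. It was tested on simulated data with the same spread for every gene, which did not cover genes absent from lone cells. SE is the log2 change over the square root of F. Within groups, libraries differed beyond sampling noise (chi-square per degree of freedom 2.98 to 4.57). The members and lists were chosen with earlier results of these data known. All members are named, with every pathway gene past the threshold whose higher group averages 1 CPM or more, and Pycard, Il1r1, Il1r2, Aim2, Nlrc4, Nek7, P2rx7, Myd88, Sigirr and Il33 whatever their values. A pathway gene that this rule takes is counted but not reported here.

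The 17 alternatives were DESeq2 size factors, upper quartile scaling, no filter on low counts, 1 CPM or more in 3 or more libraries, 1 CPM or more in lone cells, the DESeq2 1.42.0 Wald test, limma-voom (limma 3.58.1), limma on log2(FPKM + 1), on log2(FPKM + 0.1) and with a mean FPKM of at least 1, the replicate letter as a block, and each library left out in turn.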

Additional observations from a re-analysis of the deposited data

How the results depend on the processing

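Il1rn, Il18 and Il1rap were called higher in all 17 alternatives, and Il1a and Il1b in the 15 that held them. Where low counts were filtered, only their cocultured libraries kept Il1a and Il1b in the fit. That fixed the direction of Il1a and Il1b, so their calls there do not test it. The members called higher numbered 4 to 6, with 4 where at least 1 CPM in lone cells or a mean FPKM of at least 1 was asked, which removes Il1a and Il1b. Members called lower numbered 0 to 1 when each library was left out in turn, with 1 (Nlrp3) without alone replicate C. Over all genes, 1707 were called higher with limma on log2(FPKM + 1) at a mean FPKM of at least 1, against 2819, with fewer genes tested. The log2 change of Casp4 ran from -0.027 to 0.052 over the alternatives, and that of Myd88 from -0.00047, without coculture replicate A, to 0.089. Same-lettered libraries deviated together with r of 0.0305, 0.0520 and 0.0870, none over 0.1, so the letters were not taken to pair the libraries, although each library correlated best with its own letter. With the replicate block 6 members and 10 pathway genes were called higher, and 0 members and 5 pathway genes lower, and 2815 and 1951 of all genes. Sigirr lost its call there. Depth limits Il1a, Il1b, Il18bp, Il18r1, Sigirr, Gbp5, Pycard and Il1r1, among others, with at most 49 counts each per library. Il18bp could not be distinguished between groups at this depth.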

Other observations

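Some pathway genes too low to test had counts in coculture only, and they are named here after their values were seen. Casp12, a caspase gene of the same cluster as Casp1 and Casp4, had 0 counts in all lone libraries and 18, 14 and 8 in cocultured replicates A, B and C, at least 13.8-fold higher against 3 counts over the lone group. Il1f9, which encodes interleukin 36 gamma, had 0 counts alone and 5, 9 and 15 in coculture. Nlrp1a, a sensor gene, showed the reverse, with 6, 0 and 7 counts alone and 0 in all cocultured libraries, and it has near-identical paralogs. The part of RNA from TTJ cells in these counts was not tested.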
